A study of Mus musculus with 6 samples.

Results

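Keratins are the intermediate filament proteins of epithelial cells. The family was taken as the 52 genes, of 23420 in the count table, whose symbol is Krt followed by a digit. A keratin was counted as detected when it held more than 10 counts in at least 2 of the 6 libraries, and 11 keratins did so: Krt12, Krt5, Krt6a, Krt6b, Krt13, Krt15, Krt1, Krt10, Krt18, Krt8 and Krt222. The libraries were made from retinas of CD1 mice, 2 libraries per group, by the sample labels. Control mice were untreated. Light-exposed mice received 1 h of light at 10000 lux and were analysed 4 days later. The third group received the same light and daily intraperitoneal injections of minocycline, a tetracycline antibiotic, at 45 mg/kg for 4 days, with analysis at the same time. The labels name no solvent injection for the other 2 groups. The study's methods differ from these labels: they describe adult mice of both sexes of another albino strain, BALB/cJ, a different brightness, and minocycline begun before the light with more than 1 injection on the first days. The labels are followed here. The columns of both minocycline libraries carry the same header, so neither can be given a number, and the names minocycline A and minocycline B are used instead.

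A keratin filament is built from pairs of a type I and a type II keratin, and each kind of epithelium makes its own pairs. Krt8 and Krt18 form the filaments of simple epithelia, to which the retinal pigment epithelium belongs. Krt5 is made in the basal layer of stratified epithelia, in skin together with Krt14, while Krt15 marks some basal cells. Krt12 is the keratin of the corneal epithelium, where it pairs with Krt5 in the mouse. Krt6a and Krt6b are made in stratified epithelia under stress or repair, Krt4 and Krt13 above the basal layer of mucosal epithelia such as the conjunctiva, and Krt1 and Krt10 above the basal layer of epidermis. The neurons and glia of the retina use other intermediate filaments.

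Krt12 and Krt5 held most of the counts of stratified-epithelium keratins described below, and Krt18 most of the remaining keratin counts, so the promoters of these 3 genes are shown. Each runs from 250 bases before to 50 bases after the transcription start, 5′ to 3′ on the gene's own strand, from RefSeq (GRCm38.p6). Capitals mark any match, on either strand, to TATAAA (the TATA box), GCCNNNGGC (the AP-2 motif) or GGGNGTGG (a KLF motif).
Krt12: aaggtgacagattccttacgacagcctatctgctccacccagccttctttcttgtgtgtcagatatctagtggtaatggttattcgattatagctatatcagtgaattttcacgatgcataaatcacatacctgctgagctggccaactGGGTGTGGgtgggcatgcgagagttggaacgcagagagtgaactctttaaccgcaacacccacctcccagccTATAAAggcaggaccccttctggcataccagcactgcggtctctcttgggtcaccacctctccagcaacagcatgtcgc
Krt5: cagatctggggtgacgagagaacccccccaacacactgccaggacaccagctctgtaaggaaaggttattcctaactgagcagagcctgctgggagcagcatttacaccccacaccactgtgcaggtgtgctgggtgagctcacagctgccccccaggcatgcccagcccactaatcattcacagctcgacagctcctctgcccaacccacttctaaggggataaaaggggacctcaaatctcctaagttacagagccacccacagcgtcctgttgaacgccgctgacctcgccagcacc
Krt18: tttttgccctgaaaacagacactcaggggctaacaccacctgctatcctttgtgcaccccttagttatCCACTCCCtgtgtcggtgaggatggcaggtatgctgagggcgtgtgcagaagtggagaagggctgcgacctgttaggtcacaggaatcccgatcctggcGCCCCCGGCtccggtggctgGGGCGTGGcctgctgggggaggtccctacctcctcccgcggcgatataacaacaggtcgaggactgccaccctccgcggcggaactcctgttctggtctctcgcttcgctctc
These windows lie at chr11:99422210-99422509 (Krt12, minus strand), chr15:101712856-101713155 (Krt5, minus strand) and chr15:102027966-102028265 (Krt18, plus strand). In Krt12, TATAAA began at position -29 and GGGTGTGG at -101 relative to the start. The Krt5 window held none of the 3 motifs as spelled here. In Krt18, 1 AP-2 match began at -83, and KLF matches began at -63 and, on the opposite strand, at -182. The printed matches did not overlap one another. Over all 32851 promoters of this length, TATAAA was found in 13.6%, GCCNNNGGC in 16.6% and GGGNGTGG in 17.6%. A match here is a description of letters and not of a factor's binding.

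The libraries held 15205930 to 22856922 counts, and Gnat1, the transducin subunit of rod photoreceptors, was at 7741 to 20799 CPM, so this marker of the retina was abundant in all 6. Gnat1 was lowest after light, at 11209 and 7741 CPM, against 20799 and 14664 CPM in the controls and 17817 and 19071 CPM with minocycline, and it was not called in any comparison. CPM, the unit of level used throughout, is a count scaled to a common library size with TMM factors. Keratins took up 0.00847% to 0.00974% of all counts in the control and light-exposed libraries, 0.0228% in minocycline A and 0.0304% in minocycline B. Some libraries stood apart. Xist, which is transcribed from the inactive X chromosome, reached 77778 counts in control 1 and 25 to 188 in the other 5. Lens genes summed to 161 CPM in light-exposed replicate 1, with Cryaa at 1863 counts, and to 0.999 to 17.3 CPM elsewhere. Bfsp2, the only lens gene tested after light, was called higher (log2 fold change 2.32, adjusted p 0.0167 in edgeR). It held 54 counts in light-exposed replicate 1 and 120 in replicate 2, where Cryaa held 1 count. Genes of pigment cells summed to 312 and 1397 CPM in minocycline A and B, against 16.7 to 74.9 CPM in the other 4 libraries. Those of smooth muscle summed to 77.4 and 353 CPM against 12.7 to 26.6 CPM, and those of stroma to 42.8 and 167 CPM against 11.2 to 16.9 CPM. In bulk tissue, fewer cells of a type and less RNA per cell cannot be told apart.

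Of the 41 keratins that were not detected, 23 held 0 counts in every library. Among the 15 hair and nail keratins, 13 were at 0 throughout and the class held 2 counts in all, and no inner root sheath keratin passed 6 counts in a library. Krt2, Krt9 and Krt77 of epidermis, and Krt16, a partner of Krt6a in activated epidermis, were also at 0 in every library. A count of 0 allows up to 3 counts by chance, or 0.131 to 0.214 CPM depending on the library, for counting error only. A further 9 keratins (Krt26, Krt28, Krt20, Krt36, Krt17, Krt7, Krt84, Krt75 and Krt74) never passed 3 counts. The other 9 (Krt24, Krt23, Krt19, Krt14, Krt42, Krt80, Krt71, Krt4 and Krt78) passed 3 counts in at least 1 library. By single library, 6 keratins held more than 10 counts in each control, 8 and 9 after light, and 13 and 12 with minocycline. Krt13 and Krt6b passed the limit through the minocycline libraries alone.

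**Figure D1:**
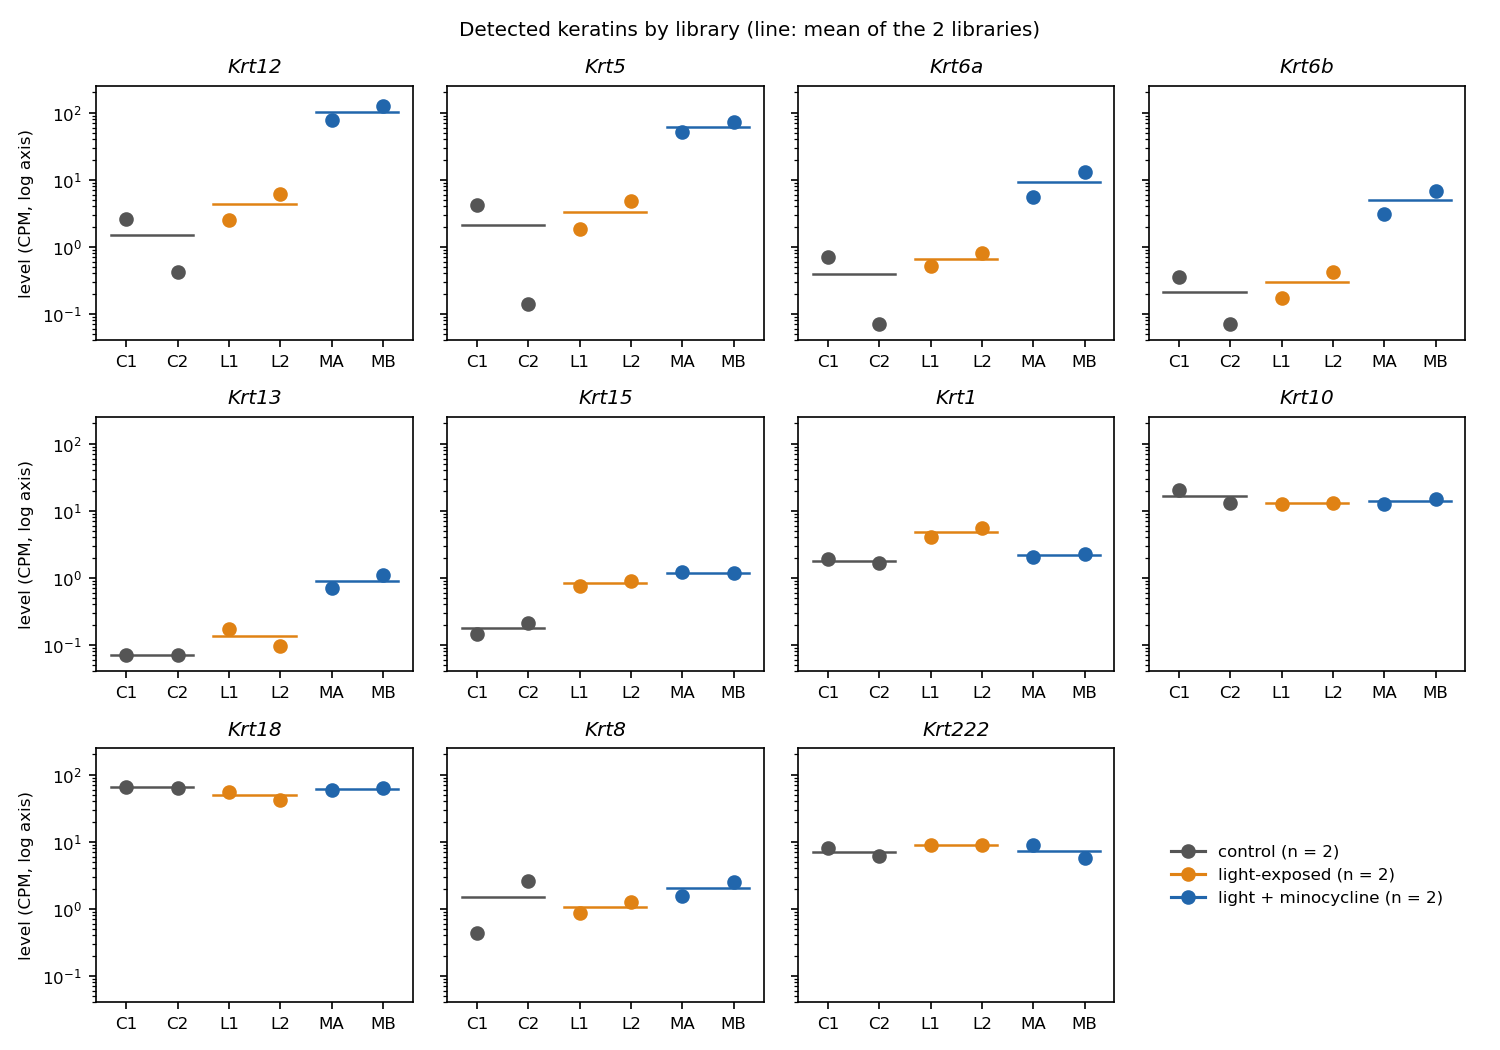
Level of each detected keratin in CPM (log axis) in control (C1, C2), light-exposed (L1, L2) and light plus minocycline (MA, MB) libraries, points for libraries and lines for the mean of 2. Krt12, Krt5, Krt6a, Krt6b and Krt13 lie at least 4.00-fold higher in both minocycline libraries than in any other library, while Krt10, Krt18 and Krt222 vary little.

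Krt12, the corneal keratin, held 36 and 6 counts in control 1 and 2, 43 and 128 after light, and 1798 and 2405 with minocycline (A, then B). The mean level was 1.5 ± 1.52 CPM for control, 4.28 ± 2.52 CPM for light and 103 ± 34.4 CPM for light plus minocycline (SD, n = 2). Both minocycline libraries lay above the other 4, by 13.0-fold at the narrowest, while the control and light-exposed replicates overlapped. The gene lies on chromosome 11 from 99415666 to 99422259 (GRCm38, minus strand). On the opposite strand, A830036E02Rik, which has no row in the count table, shares 42.0% of the 50-base windows of Krt12 transcripts. The libraries were stranded, but the use of strand in counting is not given in the sources used here.

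Krt5, the basal keratin (chromosome 15, 101707070 to 101712898), held 58 and 2 counts in control 1 and 2, 32 and 100 after light, and 1174 and 1360 with minocycline. The corresponding levels were 2.14 ± 2.83, 3.30 ± 2.03 and 61.6 ± 14.6 CPM (mean ± SD, n = 2). The minocycline libraries were again the highest 2, with a gap of 10.8-fold to light-exposed replicate 2. As a ratio the controls, at 4.14 and 0.141 CPM, differed more from each other than the minocycline libraries, at 51.3 and 71.9 CPM, did. Krt14, the usual partner of Krt5 in basal cells of skin, held 0 and 0 counts in the controls, 1 and 0 after light, and 15 and 6 with minocycline. Krt14 was therefore not detected by the rule, and it made up 0.464% and 0.143% of the stratified-epithelium keratin counts of minocycline A and B. Of its 50-base windows, 13.9% also occur in transcripts of Krt16 or Krt17.

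Krt15, the other basal keratin (chromosome 11, 100131758 to 100135928), had a different pattern. It held 2 and 3 counts in control 1 and 2, 13 and 19 after light, and 28 and 22 with minocycline. All 4 light-exposed libraries, with or without minocycline, lay above both controls. Minocycline A and B, at 1.22 and 1.16 CPM, were 1.29-fold above the higher light-exposed replicate at the narrowest.

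The keratins of activated stratified epithelium, Krt6a and Krt6b, are near-identical neighbours on chromosome 15. Krt6a (101689910 to 101694307) held 10 and 1 counts in the controls, 9 and 17 after light, and 127 and 250 with minocycline. For Krt6b (101676023 to 101680287) these were 5 and 1, 3 and 9, and 71 and 129 counts. Both genes lay highest in the 2 minocycline libraries, by 6.89-fold for Krt6a and 7.28-fold for Krt6b at the narrowest. Other transcripts on the same strand, mostly those of its neighbour, share 45.7% of the 50-base windows of Krt6a and 50.1% of those of Krt6b, so the split of counts between them is uncertain. Krt6a took 64.1% and 66.0% of their joint counts in minocycline A and B (exact 95% binomial intervals 57.0% to 70.8% and 61.0% to 70.7%). Krt17 of the same class reached at most 2 counts.

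Krt13 (chromosome 11, 100117327 to 100121566), the mucosal keratin, held 1 count in each control, 3 and 2 after light, and 16 and 21 with minocycline. Krt4, its type II partner in mucosal epithelium, held 0, 0, 2, 1, 0 and 5 counts in the same order of libraries and was not detected. Both control and light-exposed replicates of Krt13 were at or under 3 counts, so a fold is given only against the 3-count limit, without counting error. With minocycline, its level of 0.905 ± 0.291 CPM (SD, n = 2) was at least 5.18-fold higher than the light-exposed limit and at least 4.23-fold higher than the control limit.

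Summed over the 10 stratified-epithelium keratins (basal, corneal, activated and mucosal classes), the level was 8.06 and 0.984 CPM in the controls, 6.17 and 13.1 CPM after light, and 141 and 222 CPM with minocycline. The lower minocycline library was 10.8-fold above the highest other library. Krt12 made up 55.6% (53.9% to 57.4%) of the stratified keratin counts in minocycline A and 57.3% (55.8% to 58.8%) in minocycline B, with exact 95% binomial intervals that cover counting error only. In light-exposed replicates 1 and 2 the share was 40.6% (31.1% to 50.5%) and 46.4% (40.4% to 52.5%), and in control 1 it was 31.9% (23.4% to 41.3%). Relative to Krt12 plus Krt5, the share of Krt12 was 57.3% and 56.1% after light, 60.5% and 63.9% with minocycline, and 38.3% (28.5% to 48.9%) in control 1. Control 2 held only 14 stratified keratin counts, too few for a share.

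**Figure D2:**
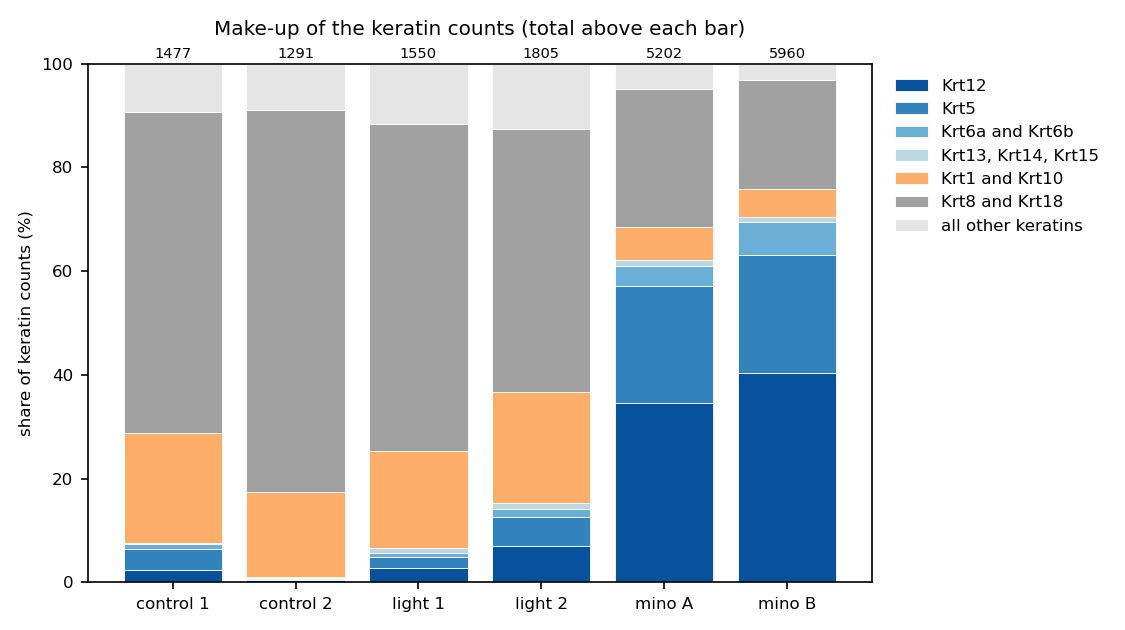
Share of the keratin counts of each library taken by groups of keratins, with the number of keratin counts above each bar. Krt8 and Krt18 take the largest share in the control and light-exposed libraries, and the stratified-epithelium keratins 62.1% and 70.5% in minocycline A and B.

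Krt1 and Krt10 (suprabasal epidermis) did not follow Krt12 and Krt5. Krt1 (chromosome 15, 101845426 to 101850794) held 27 and 24 counts in the controls, 70 and 117 after light, and 47 and 43 with minocycline. In CPM this was 1.81 ± 0.170, 4.81 ± 1.04 and 2.16 ± 0.155 (mean ± SD, n = 2), so that the light-exposed replicates lay above all other libraries. Its type I partner Krt10 (chromosome 11, 99385254 to 99389364) varied within 12.6 to 20.5 CPM over the 6 libraries, with 287 and 186 counts in the controls, 219 and 272 after light, and 289 and 281 with minocycline. Control 1 was the highest library for Krt10. Per kilobase of merged exons, the level of Krt10 exceeded that of Krt1 by 22.2-fold and 16.2-fold in the controls, 6.53-fold and 4.86-fold after light, and 12.8-fold and 13.6-fold with minocycline.

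Krt18, of simple epithelium (chromosome 15, 102028180 to 102032027), was the most abundant keratin in the controls and after light. Its counts were 908 and 915 for control, 963 and 886 after light, and 1350 and 1209 with minocycline. In CPM, this was 64.6 ± 0.343, 49.0 ± 9.97 and 61.5 ± 3.48 (mean ± SD, n = 2), with light-exposed replicate 2 the lowest library. Its type II partner Krt8 held 6 and 37 counts in the controls, 15 and 27 after light, and 35 and 47 with minocycline. Per kilobase of merged exons, the level of Krt18 was 33.7-fold to 206-fold that of Krt8, the latter in control 1 with 6 counts of Krt8. A pseudogene of Krt8 shares 26.9% of the 50-base windows of Krt8 transcripts and has no row in the count table. The retinal pigment epithelium genes Rgr, Ttr, Rpe65, Best1, Lrat and Rdh5 summed to 348 CPM in control 2 and to 111 to 195 CPM in the other 5 libraries. Krt8 was highest in control 2, at 2.60 CPM, and was at 2.49 CPM in minocycline B, where that sum was 177 CPM. A link between Krt8 and these genes was not tested.

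Per kilobase, Krt18 at 44.9 and 34.1 CPM exceeded every other keratin in control and light-exposed retinas. With minocycline, Krt12 at 55.6 CPM per kilobase lay above Krt18 at 42.8 and Krt5 at 28.1, as means of 2 libraries. The stratified type I keratins summed per kilobase to 1.62-fold and 1.70-fold the stratified type II keratins in minocycline A and B, and to 1.59-fold and 1.42-fold in the light-exposed replicates, while the controls went both ways, at 0.664-fold and 3.10-fold. Krt222, a keratin-related gene that stands at one end of the chromosome 11 cluster, varied between 5.77 and 9.01 CPM. The undetected Krt19 (simple epithelium) held 2 and 1 counts in the controls, 2 and 3 after light, and 13 and 8 with minocycline, while Krt80 held 40 counts in minocycline B and at most 10 elsewhere.

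The genes of the 51 keratins matched to GENCODE M21 (all but Krt85) lie in 2 clusters, 27 on chromosome 11 over 1037 kb and 24 on chromosome 15 over 685 kb. Krt6b, Krt6a and Krt5 are consecutive within 36.9 kb on the minus strand, and all 3 were high with minocycline. Krt12 stood between Krt10, which varied little, and Krt20, which never passed 3 counts. Krt5 was followed by Krt71, an inner root sheath keratin with at most 6 counts, and Krt18 lies at the end of the same cluster, with its start 321 kb from that of Krt5.

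**Figure D3:**
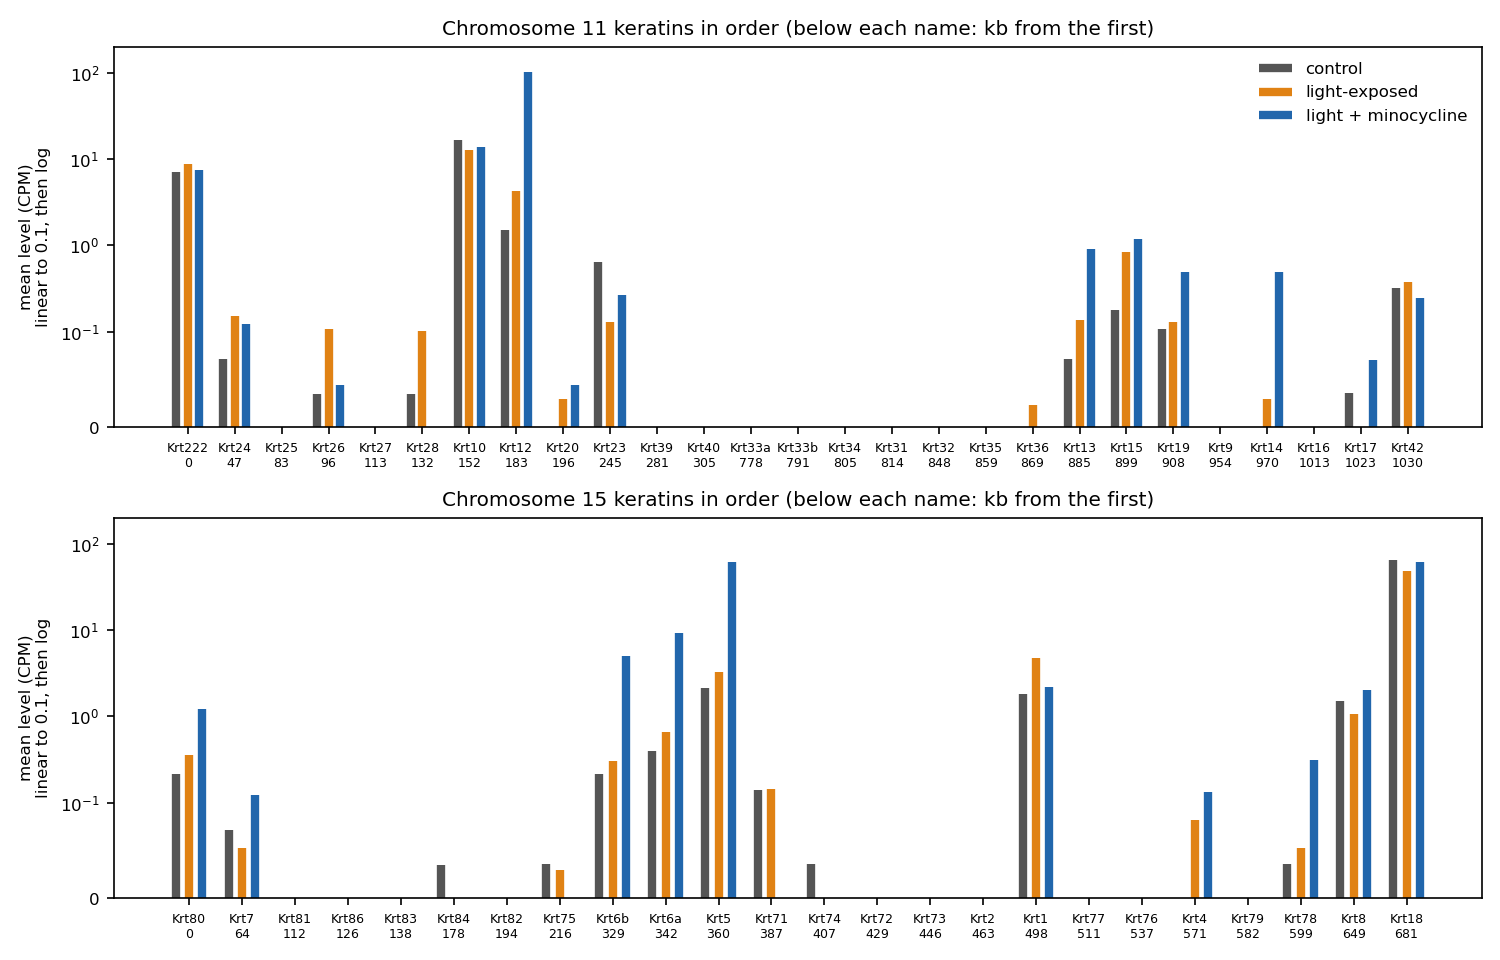
Mean level of each keratin (CPM, mean of 2 libraries, axis linear to 0.1 and logarithmic above) in the order of the genes along chromosomes 11 and 15, with the distance from the first keratin in kb under each name. Bars for light plus minocycline stand out at Krt12 and at the neighbours Krt6b, Krt6a and Krt5.

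Light exposure was first compared with control, to see which keratins changed with light damage alone. Krt15 rose after light, from 0.177 ± 0.0482 to 0.829 ± 0.101 CPM (SD, n = 2), with a Benjamini-Hochberg adjusted p of 0.0476 by the quasi-likelihood test of edgeR. Because both controls were at or under 3 counts, the change is given against the 3-count limit, without counting error. It was at least 3.87-fold, and at least 3.54-fold without light-exposed replicate 2. For Krt15 the fitted log2 fold change was 2.19 (standard error 0.63). Its call was lost with DESeq2 (adjusted p 0.298), DESeq2 size factors, no filter or all 6 libraries in one fit, and when any of the 4 libraries was left out. Krt1 was higher by a log2 fold change of 1.42 (standard error 0.37) with an adjusted p of 0.0341 in edgeR, below the fold cutoff of the call rule. That p was 0.102, 0.162 and 0.202 in edgeR when control 1, control 2 or light-exposed replicate 2 was left out. To be called, a gene needed both an adjusted p below 0.05 and a log2 difference of 2 or more in either direction.

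Krt15 was the only keratin called of the 9 detected keratins tested, where 2.92% of the 14349 genes tested were called. An adjusted p under 0.05 was reached by 2 of the 9, against 11.3% of all genes tested. Of all genes with such a p, 66.4% were higher after light, and 93.6% when libraries were scaled by total size alone. Krt13 and Krt6b were not tested here because they failed the filter on low counts in these 4 libraries. The replicates did not overlap and lay higher after light for Krt222, Krt15 and Krt1 among the 9, where 30.1% of all genes did so, and lay lower for Krt10 and Krt18, where 30.8% did so. For Krt12, Krt5 and Krt6a the log2 fold changes were 1.54, 0.65 and 0.78, with standard errors of 0.81, 1.41 and 0.76, so each was under 2 standard errors. The fitted log2 fold change of Krt12 was 3.33 without control 1 and 0.75 without control 2. Krt18 was 0.39 lower on the log2 scale after light (log2 fold change -0.39, standard error 0.17, adjusted p 0.153 in edgeR).

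Next, light-exposed retinas with and without minocycline were compared. Krt12 had a log2 fold change of 4.57 (standard error 0.48), Krt5 of 4.21 (0.44), Krt6b of 3.99 (0.63) and Krt6a of 3.81 (0.55). Their adjusted p-values in edgeR's quasi-likelihood test were 0.0691 for Krt12, Krt5 and Krt6a and 0.0698 for Krt6b, so none was called. Of the 11 detected keratins, 0 were called, where 0.0475% of the 14750 genes tested were called, and 6 had an unadjusted p under 0.05, where 21.1% of the genes did. In DESeq2 without shrinkage, the same 4 keratins were called higher, where 0.585% of the genes were called higher. Their adjusted p-values in DESeq2 were 4.34e-27 for Krt5, 8.2e-09 for Krt12, 3.00e-08 for Krt6a and 1.06e-05 for Krt6b. This comparison and the one above share the light-exposed libraries, so they are not independent.

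When a library was left out, the keratins called in edgeR varied. In each such fit 1 group has a single library, which is assumed to vary like the pair of the other group. Krt12 and Krt5 were called when either light-exposed replicate was left out, Krt6a and Krt6b without minocycline A, and 0 keratins without minocycline B. Fitted log2 fold changes over all alternatives ranged from 4.08 to 5.35 for Krt12, 3.70 to 5.03 for Krt5 and 3.03 to 4.32 for Krt6a. For Krt6b they ranged from 3.30 to 4.47, apart from the fit without light-exposed replicate 2. There it was at least 28.4-fold higher than the 3-count limit of replicate 1. Both minocycline libraries lay above both light-exposed replicates for 8 of the 11 keratins, where 26.8% of all genes tested did so. The 8 were Krt12, Krt5, Krt6a, Krt6b, Krt13, Krt15, Krt8 and Krt18, with gaps of 1.05-fold for Krt18 to 13.0-fold for Krt12. Krt13 and Krt6b passed the filter on low counts only through the libraries in which they were high, so these numbers describe the members and do not support a difference. Krt1 alone was lower without overlap, where 28.1% of all genes were, with a log2 fold change of -1.14 (standard error 0.35, adjusted p 0.131 in edgeR). Krt15 differed by 0.53 (standard error 0.41, adjusted p 0.516 in edgeR).

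**Figure D4:**
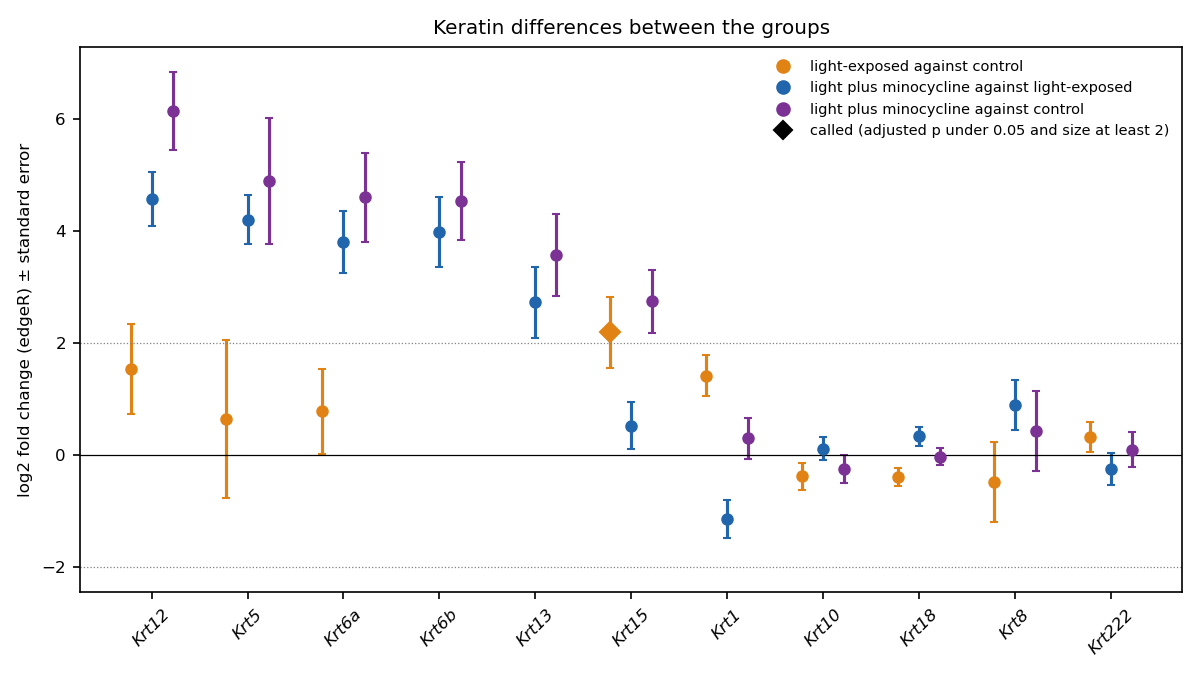
Log2 fold change (edgeR) with its standard error for each detected keratin in the 3 comparisons, where diamonds mark calls and dotted lines the cutoff of 2. Krt15 after light is the only call, and Krt12, Krt5, Krt6a and Krt6b lie between 3.81 and 6.15 in both comparisons with minocycline.

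Against control, in a comparison that shares 2 libraries with each of those above, light plus minocycline gave log2 fold changes of 6.15 (standard error 0.70) for Krt12, 4.90 (1.13) for Krt5, 4.61 (0.80) for Krt6a and 4.54 (0.69) for Krt6b. Without control 2 these were 5.37 for Krt12, 3.75 for Krt6a and 3.82 for Krt6b. Without control 1 the value for Krt12 was 7.94, while Krt6a and Krt6b, at 1 count in control 2, were at least 44.5-fold and at least 23.5-fold higher than its 3-count limit. The adjusted p-values in edgeR with all 4 libraries were 0.117, 0.533, 0.136 and 0.068, and 0 of the 11 keratins were called, where 0.134% of the 14181 genes tested were. An unadjusted p under 0.05 was found for 6 keratins, where 7.01% of the genes had one. In DESeq2 without shrinkage, Krt12 (adjusted p 2.84e-05) and Krt6b (adjusted p 2.87e-05) were called, where 0.557% of the genes were called higher. Krt5 was called in edgeR when either control was left out, in fits whose spread comes from the minocycline pair alone, without the difference between the controls of 58 and 2 counts. Without control 1, its level with minocycline was at least 292-fold higher than the 3-count limit set by control 2, and its fitted log2 fold change was 8.74. Krt6a and Krt6b were called when either minocycline library was left out, together with Krt13 and the undetected Krt80 without A and with Krt12 and Krt14 without B.

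Krt15 was at least 5.58-fold higher with minocycline than the control limit, with an adjusted p of 0.136 in edgeR. The replicates lay higher without overlap for 7 of the 11 keratins, where 15.5% of all genes did, namely the 6 stratified-epithelium members and Krt1. None of these 6 had more than 10 counts in both controls, so in this comparison they passed the filter on low counts through the minocycline libraries in which they were high, and the counts of members given for it are a description. They lay lower for Krt18, where 24.5% did, with a log2 fold change of -0.03. For Krt10, Krt8 and Krt222 the groups overlapped, and their log2 fold changes were -0.24, 0.43 and 0.10 with standard errors of 0.25, 0.72 and 0.31. The study had placed Krt12, Krt5, Krt6a and Krt6b in its list of genes higher with minocycline, which was chosen on these same libraries.

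Keratin filaments end on desmosomes between cells and on hemidesmosomes at the basement membrane. Of the 14 desmosome genes tested between the light-exposed groups, 1 was called higher, where 0.0475% of all genes were called, and 13 were higher without overlap, where 26.8% of all genes were, with a median log2 fold change of 1.95 beside 0.0062 over all genes. Because 9 of the 18 listed genes passed the filter on low counts in light against control, but 14 with the minocycline libraries, some entered only where they were high, and these numbers are a description. Dsp, desmoplakin, which ties keratins to the desmosome, was called. Its counts were 17 and 20 for control 1 and 2, 6 and 18 after light, and 301 and 393 with minocycline. The log2 fold change was 4.78 (standard error 0.47, adjusted p 0.0444 in edgeR) against light and 3.73 (standard error 0.35, adjusted p 0.0356 in edgeR) against control. The value against light was 4.30 without light-exposed replicate 1 and 5.57 without replicate 2. The call against light was lost with DESeq2 size factors or total library size, and the call against control with all 6 libraries in one fit or when either control was left out. Dsc3 and Dsg1a, desmosomal cadherins of stratified epithelia, held at most 1 count in each control and light-exposed library and 54 and 90, and 50 and 95, counts with minocycline. Both passed the filter on low counts only through the minocycline libraries, and were not tested in light against control. Against control they were called, at least 16.6-fold and at least 16.8-fold higher than the 3-count limit, with adjusted p-values of 0.0366 and 0.0448 in edgeR. These folds use the mean of minocycline A and B, at 2.36 and 4.76 CPM for Dsc3 and 2.19 and 5.02 CPM for Dsg1a. Both calls were lost under the same 3 alternatives as that of Dsp. These 3 genes of the 18 on the list also stand in the study's own list.

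Of the 8 hemidesmosome genes tested between the light-exposed groups, 1 was higher without overlap, where 26.8% of all genes were, 0 were called, where 0.0475% were, and the median log2 fold change was -0.60. With minocycline against control, 4 of 7 were higher without overlap, where 15.5% of all genes were, 0 were called and the median was 0.45. After light, 3 of 7 tested had an adjusted p under 0.05 in edgeR, where 11.3% of all genes did, and all 3 were higher, among them Cd151, a tetraspanin of the hemidesmosome, at 243 and 257 counts in the controls and 543 and 1092 after light. The linkers Dst and Plec had the highest CPM on this list. Of the 14 tested regulators of stratified epithelium, 0 were called between the light-exposed groups and 9 were higher without overlap, where 26.8% of all genes were, with a median of 1.06. Only 10 of the 18 listed regulators passed the filter in light against control, so here too some entered through the libraries in which they were high. Pax6, Tfap2b and Tfap2a, which had the highest CPM, were not among those higher, with log2 fold changes of -0.44, -0.13 and -0.18 against light. They are also transcription factors of retinal neurons.

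Markers of other cell types moved with the keratins, and their part in the keratin values was not tested. All 16 tested genes of the corneal epithelium list, which holds no keratin, were higher without overlap with minocycline than with light alone, where 26.8% of all genes were, with a median log2 fold change of 4.13. Only 3 of the 18 passed the filter on low counts in light against control, so most members entered through the minocycline libraries in which they were high, which largely fixes this count and median. Calml3 was called against light (adjusted p 0.0458 in edgeR), a call lost with DESeq2 size factors, with total library size and without minocycline B. Against control, 8 of 16 were called, where 0.134% of all genes were, with the same limit: Calml3, Trim29, Anxa8, Aqp3, Aqp5, Cldn4, Sdc1 and Tmprss11a. With all 6 libraries in one fit none of the 8 was called, and of these only Calml3 was called when either control was left out. The study's own list holds 13 of these 18 genes, so their direction is not independent of these libraries. Their summed level was 6.42 and 2.60 CPM in the controls, 7.51 and 12.3 CPM after light, and 105 and 148 CPM with minocycline, and Ly6d was at 0 in every library. Of general epithelial genes (Spint1, Cdh1, Cldn7 and Epcam), 3 of 3 tested lay higher with minocycline than with light alone, where 26.8% of all genes did, 0 were called, and the sum was 7.21 and 10.2 CPM against 2.11 to 3.49 CPM in the other libraries.

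The conjunctival goblet cell genes did not show this pattern, at 2.01 and 1.32 CPM with minocycline, 4.08 and 2.61 CPM after light, and 0.714 and 1.62 CPM in the controls, with Agr2, Spdef and Muc5ac the most abundant. Genes of the cornified envelope of epidermis, led by Sbsn, Tgm3 and Tgm1, summed to 15.8 and 26.1 CPM with minocycline against 15.7 to 19.8 CPM elsewhere, with Flg2, Sprr1b and Klk7 at 0 throughout. Sbsn, with the highest mean CPM on the list, was lowest with minocycline, whereas 2 of 4 tested genes, Tgm3 and Tgm1, were higher without overlap than with light alone, where 26.8% of all genes were. Tgm1, a transglutaminase that cross-links the envelope, was at 1.97 and 9.73 CPM with minocycline and at most 0.703 CPM elsewhere (log2 fold change 3.17 against light, adjusted p 0.121 in edgeR). Pigment cell genes (7 of 7, among them Dct, Pmel and Tyrp1), smooth muscle genes (6 of 7, with Acta2, Myh11 and Tagln) and stromal genes (5 of 6, with Dcn and Islr) were higher without overlap with minocycline than with light alone, where 26.8% of all genes were, and 0 of these were called. The remaining stromal gene, Col1a2, overlapped between the groups. In light against control 4 stromal and 6 smooth muscle genes passed the filter on low counts, against 6 and 7 here, so some of these also entered where they were high. In each of these 3 sums, given above, minocycline B exceeded minocycline A by a wider margin than in the sums of stratified keratins or of the corneal list. The summed retinal pigment epithelium genes with minocycline, 111 and 177 CPM, overlapped those of the other groups.

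**Figure D5:**
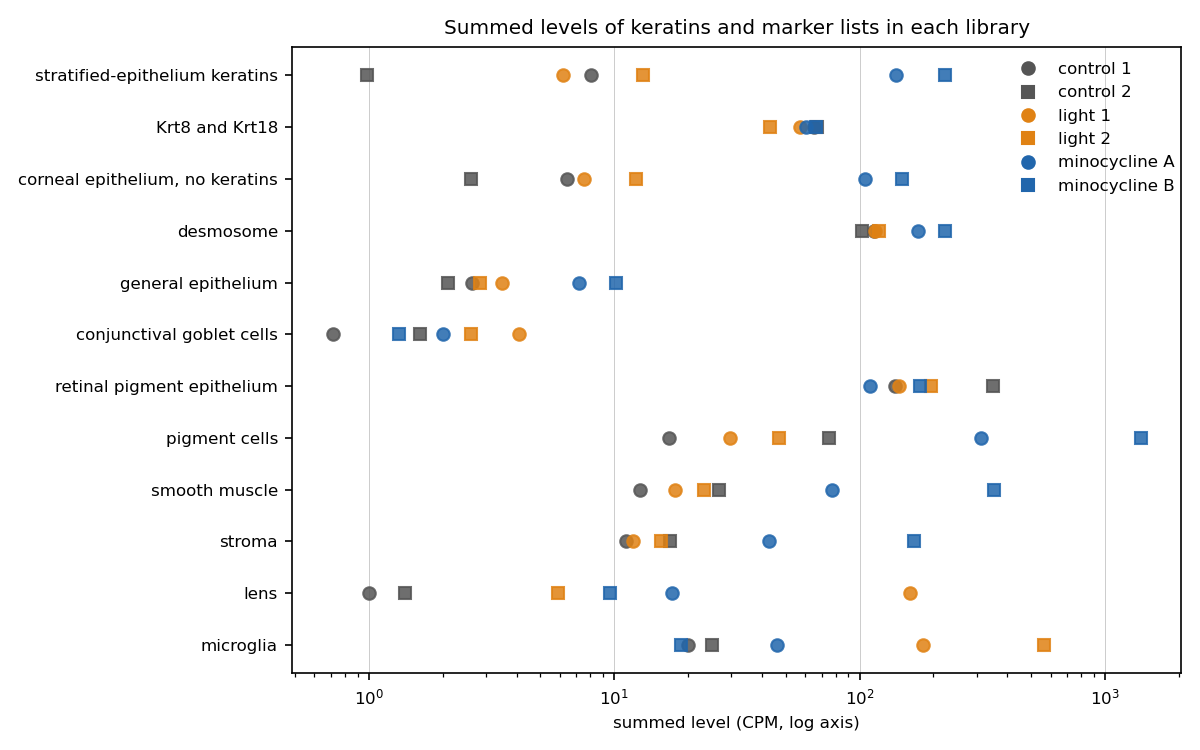
Summed level (CPM, log axis) of stratified-epithelium keratins, of Krt8 with Krt18 and of marker lists in each library, with a circle and a square for the 2 libraries of a group. The keratins of stratified epithelium and the corneal list are highest in both minocycline libraries by 10.8-fold and 8.54-fold. Pigment, smooth muscle and stromal lists are also highest in both, by 4.16-fold, 2.91-fold and 2.53-fold, and differ more between minocycline A and B.

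Genes outside the family whose profile over the 6 libraries was most like that of the summed stratified-epithelium keratins were then listed, from 14688 genes with more than 10 counts in at least 2 libraries. Likeness was the root mean square difference in log2 CPM after centring on the mean of the 6 libraries. The nearest was Aldh3a1, an aldehyde dehydrogenase that is abundant in the cornea, at 0.30, with 21 and 2 counts in the controls, 16 and 66 after light, and 1039 and 830 with minocycline. Lypd2 (0.49), Calml3 (0.61), Trim29 (0.85), Slurp1 (0.98), Muc4 (0.99) and Tmprss11a followed, and these first 7 genes are all on the corneal list. Fam83a (1.02), Lypd3 (1.04) and 1600029D21Rik (1.07) completed the 10. On the same measure, Krt12 lay at 0.27, Krt5 at 0.35, Krt6a at 0.65 and Krt6b at 0.90, while Krt18 lay at 2.65 and Krt1 at 2.73. Krt12, Krt5, Krt6a and Krt6b are part of the sum they are set against, and Krt18 and Krt1 are not. Krt12 and Krt5 held most of that sum, which largely fixes their closeness, so these values are a description. Each of the 10 genes stands in the study's list of genes higher with minocycline.

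Intermediate filament genes outside the keratin family, many of them used by retinal glia and neurons, were compared as a list of 14. Gfap of astrocytes and stressed Müller cells rose after light with a log2 fold change of 2.02 (standard error 0.29, adjusted p 0.0154 in edgeR), the only call on the list in the 3 comparisons. That call, and those of Bfsp2 and Cx3cr1, were lost when either control was left out. The calls of Gfap and Bfsp2 were also lost without light-exposed replicate 2, that of Gfap with DESeq2 by the fold cutoff alone (log2 fold change 1.9998, adjusted p 2.05e-11), that of Bfsp2 with all 6 libraries in one fit, and that of Cx3cr1 with no filter. Vim was 1.71 higher (adjusted p 0.0197 in edgeR), below the fold cutoff. With minocycline against light, Gfap had a log2 fold change of -2.0 (adjusted p 0.0691 in edgeR). Nefl, the neurofilament light chain, had the highest CPM on this list and was not called. Microglial genes (Cx3cr1, C1qa, Csf1r and Tyrobp) summed to 181 and 564 CPM after light against 18.7 to 46.2 CPM elsewhere. Cx3cr1 was called after light (log2 fold change 3.82, adjusted p 0.0282 in edgeR). Its log2 fold change was 4.35 without light-exposed replicate 1 and 2.94 without replicate 2. Müller cell genes (Glul, Rlbp1, Slc1a3 and Aqp4) summed to 1456 to 2583 CPM in the 6 libraries.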

How the data were processed

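RNA of 6 mouse retina samples had been sequenced from stranded mRNA libraries. Reads were aligned to mm10 and assigned to genes with STAR in the RNA Express workflow, by the study's methods, and DESeq2 is named as a tool. The annotation and the use of strand in counting are not given in the sources used here. The authors deposited 1 table of counts per gene and library, described as normalized but holding whole numbers with unequal totals, which were used as raw counts. All 6 value columns were used and 0 were left out. Depth was 15205930 to 22856922 counts.

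Keratins were the rows whose symbol begins with Krt and a digit. Each pair of groups was fitted over all genes by the robust quasi-likelihood method of edgeR 4.0.16 (R 4.3.3), after filterByExpr and TMM scaling, with Benjamini-Hochberg adjustment, with DESeq2 1.42.0 as an alternative. Standard errors are the log2 fold change divided by the square root of F. Groups at or under 3 counts in every library were set to that limit. Folds written as at least are against this limit and do not cover counting error. Intervals of shares are exact Clopper-Pearson intervals and cover counting error only. Positions came from GENCODE M21 (GRCm38), and 51 of 52 keratins matched. Scripts were tested on simulated data.

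Detected keratins are all named. From each marker list the genes called in any comparison, or else the 3 with the highest mean CPM, are named, with the 10 genes nearest in profile. The rod list is not reported here. The members and lists were chosen with earlier results of these data known. The study calls the libraries of a group biological replicates, and the controls differed in Xist, but the labels do not say how many animals each library holds, so p-values measure the spread between these samples. With 2 libraries per group an exact two-sided permutation test cannot go below 0.333, so no test was run on summed levels.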

Additional observations from a re-analysis of the deposited data

How the results depend on the processing

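For light against control, 1 keratin was called, and 2 without the fold cutoff. DESeq2, DESeq2 size factors, no filter and all 6 libraries in one fit gave 0 each (DESeq2 found Krt1 but not Krt15 at an adjusted p under 0.05), as did each leave-out (0 to 0). The replicate block gave 1 and changed no other call. Deviations of same-numbered replicates from their group means correlated at -0.0082 over 14349 genes. With 2 libraries per group this is 1 correlation, which cannot decide whether these replicates share more than a number. No paired analysis was possible because the minocycline columns are unnumbered, as far as the other 2 comparisons go. For minocycline against light, 0 became 4 with DESeq2, 3 with no filter, 3 with all 6 libraries, and 0 to 2 with a library left out. Against control, 0 became 2 with DESeq2, 1 with DESeq2 size factors, 3 with no filter, and 1 to 4 with a library left out. The causes were not tested. Of 11 detected keratins, a limit of over 3 counts gave 17, and leaving out a library gave 9 to 11. Summed keratins, at 98.1 CPM in control and 87.9 CPM after light, were 33.5 and 38.9 CPM without Krt18, and with total library size 90.9 and 96.5 CPM, which turns their order. The stratified sum with minocycline was 78.8 CPM without Krt12.

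Log2 fold changes of uncalled genes changed sign when libraries were left out. After light they ranged from -0.083 to 3.13 for Krt6a, -0.31 to 4.49 for Krt5 and -1.26 to 1.33 for Krt8. For minocycline against light they ranged from -0.58 to 0.022 for Krt222, -0.024 to 0.25 for Krt10 and -1.17 to 0.87 for Bfsp2. With total library size, Krt10 was at -0.065 and Bfsp2 at -0.040. Against control the ranges were -0.26 to 0.34 for Krt222, -0.52 to 0.10 for Krt10, -0.35 to 2.26 for Krt8, -0.13 to 0.027 for Krt18, -0.24 to 0.38 for Gfap and -0.53 to 0.75 for Cx3cr1. Krt18 was at 0.011 with total library size and Gfap at -0.0055 with all 6 libraries. With total library size, the all-gene median shifted from 0.0025 to 0.24 after light and from 0.0062 to -0.17 for minocycline against light. A count of 3, the limit set by a count of 0, was 0.131 to 0.214 CPM.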
